A study of Mus musculus with 15 samples.

Results

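UDP-glucuronosyltransferases of mouse liver were described here as 10 genes: Ugt1a1, Ugt1a6a, Ugt1a9, Ugt2a3, Ugt2b1, Ugt2b5, Ugt2b34, Ugt2b35, Ugt2b36 and Ugt2b38. They were found by symbol among the 57132 gene identifiers of the deposited count table. All 10 were among the 18181 genes that passed the expression filter, so no member was lost to low counts. The RNA came from whole liver of male mice of the inbred C57BL/6J strain, which were 8 weeks old when the diets began. Chow mice ate standard chow for 18 weeks. For the same 18 weeks, mice of the Vehicle and SR9009 groups were fed CDA-HFD, a choline-deficient high-fat diet with adapted amino acids, used as a model of steatohepatitis. During the last 6 of those weeks the Vehicle mice received daily intraperitoneal injections of 15% Kolliphor ELP in saline, and the SR9009 mice received SR9009, a small-molecule agonist of the REV-ERB nuclear receptors (clock repressors), at 100 mg/kg/day. No injection is recorded for Chow mice either way, so effects of diet and of injection cannot be told apart; the time of day at collection is not recorded in the labels. There were 4 Chow, 5 Vehicle and 5 SR9009 libraries, each labelled as a sample of its own.

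UDP-glucuronosyltransferases sit in the endoplasmic reticulum membrane and transfer glucuronic acid from UDP-glucuronate to bilirubin, steroids, bile acids, phenols and drugs, which makes these compounds water-soluble for export into bile or blood. The hepatocyte is the main site of this reaction. Ugt1a enzymes come from 1 locus in which alternative first exons are joined to a shared set of later exons, while each Ugt2b enzyme has a complete gene of its own within a cluster. The nuclear receptors CAR, PXR and PPAR alpha and the ligand-activated factor AHR are known regulators of these genes.

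Total counts were between 29950509 and 45542335 per library. Levels are given as CPM, counts relative to the library's effective total after TMM scaling (a library scaling that assumes most genes are unchanged). Each comparison was fitted to all 18181 genes with edgeR's quasi-likelihood test, and adjusted p-values are Benjamini-Hochberg values over all of them, with 0.05 as the threshold. A floor of 3 counts was between 0.0607 and 0.124 CPM. Genes that define hepatocytes were abundant: 9 hepatocyte markers summed to between 108342 and 150521 CPM in Chow, 83171 and 90102 in Vehicle, and 69018 and 85723 in SR9009. Summed kidney markers reached at most 0.115 CPM in any library. Summed pancreas markers reached 7.55 CPM in 1 Vehicle library, where the Vehicle median was 0.160 CPM. Summed mesothelium markers reached at most 12.6 CPM in Chow, 37.3 in Vehicle and 69.2 in SR9009. One feature split the diet-fed libraries. Of 1449 genes for olfactory and related chemosensory receptors, 42 to 102 had a count in Chow and in 2 Vehicle (replicates 4 and 5) and 2 SR9009 libraries (replicates 1 and 3), while 140 to 218 had one in the other 3 and 3. Chow replicate 1, at 102, lay nearest the boundary of 107.5. These are called the few-receptor and many-receptor classes, and values within them are given beside the results they touch.

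The sequences upstream of Ugt2b5 and its close relatives Ugt2b38 and Ugt2b37 are shown because these 3 genes are alike in sequence and stood at very different levels. All are RefSeq sequences of the GRCm38.p6 assembly, 250 bases that end at the base before the annotated start site, written 5′ to 3′ on the gene's strand. Capitals mark bases that have no identical partner in the pairwise alignment, with Ugt2b38 for Ugt2b5 and Ugt2b37 and with Ugt2b5 for Ugt2b38.
Ugt2b5 (chr5:87140341-87140590, minus strand): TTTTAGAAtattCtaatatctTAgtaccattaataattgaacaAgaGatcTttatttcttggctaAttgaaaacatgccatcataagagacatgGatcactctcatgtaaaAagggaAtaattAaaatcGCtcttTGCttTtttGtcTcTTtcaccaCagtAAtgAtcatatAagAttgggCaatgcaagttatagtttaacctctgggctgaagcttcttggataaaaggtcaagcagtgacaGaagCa
Ugt2b38 (chr5:87424204-87424453, minus strand): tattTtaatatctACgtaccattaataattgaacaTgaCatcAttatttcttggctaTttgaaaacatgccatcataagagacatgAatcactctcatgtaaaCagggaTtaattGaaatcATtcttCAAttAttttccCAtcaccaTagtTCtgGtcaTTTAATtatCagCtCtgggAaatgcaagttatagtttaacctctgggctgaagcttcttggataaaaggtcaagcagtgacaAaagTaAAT
Ugt2b37 (chr5:87254789-87255038, minus strand): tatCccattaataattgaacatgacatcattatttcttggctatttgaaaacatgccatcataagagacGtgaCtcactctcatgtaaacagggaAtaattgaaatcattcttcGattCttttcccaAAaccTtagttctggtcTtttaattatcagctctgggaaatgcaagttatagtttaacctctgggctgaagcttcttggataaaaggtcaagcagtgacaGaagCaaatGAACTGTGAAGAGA
Over aligned bases Ugt2b38 and Ugt2b37 were identical at 224 of 236 (94.9%), and Ugt2b5 and Ugt2b38 at 212 of 240 (88.3%). The coding sequences of Ugt2b5 and Ugt2b38 were identical at 1546 of 1593 bases (97%).

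The 250-base windows of all 10 genes were searched on both strands. AGGTCA, the core hexamer of nuclear receptor sites, lay upstream of 5 of the 10 (Ugt1a9, Ugt2b5, Ugt2b35, Ugt2b36 and Ugt2b38), against 14% of 32851 RefSeq promoters. It began 22 bases before the annotated start in Ugt2b5, 25 bases before it in Ugt2b36 and Ugt2b38, and also lay in the Ugt2b37 window. The letters next to it were the same in the windows of these relatives, so the 5 matches are not independent of each other. TAGGTCA, the form with a T before the hexamer that REV-ERB and ROR receptors bind and that contains AGGTCA, was upstream of 0 of 10 (2.23% of promoters). CACGTG, the E-box bound by clock activators, was in 0 of 10 (6.02%), TGACNNNGC, the core of the antioxidant response element, in 0 of 10 (10.2%), and GCGTG, the AHR core, in 0 of 10 (28.2%). These matches describe letters in short windows only.

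Vehicle was compared with Chow to ask how the steatohepatitis diet, with its injections, changed these genes. Nearly the whole family was lower in the diet-fed livers. Of the 10 genes, 9 fell and 0 rose (edgeR, adjusted p under 0.05). Over all tested genes 55.2% passed the same threshold, 25.4% lower and 29.8% higher. For 7 of the 10 every Vehicle library was below every Chow library, against 20.7% of all genes in that direction and 24.7% in the other. The median log2 fold change was -1.02 over the 10 genes and 0.02 over all genes. The falls ran from 1.48-fold for Ugt2b35 to 50.3-fold for Ugt2b38. The 10 genes together took 0.347 ± 0.0266% (SD, n = 4) of all counts in Chow and 0.201 ± 0.0261% (SD, n = 5) in Vehicle. In these bulk samples fewer hepatocytes and less RNA per hepatocyte cannot be told apart. Hepatocyte markers moved the same way: 7 of 9 fell, and their median log2 fold change was -0.57. Summed macrophage markers were at most 297 CPM in Chow and at least 820 CPM in Vehicle, and summed stellate cell and fibroblast markers at most 229.6 and at least 794 CPM. Their part in the result was not tested.

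**Figure D1:**
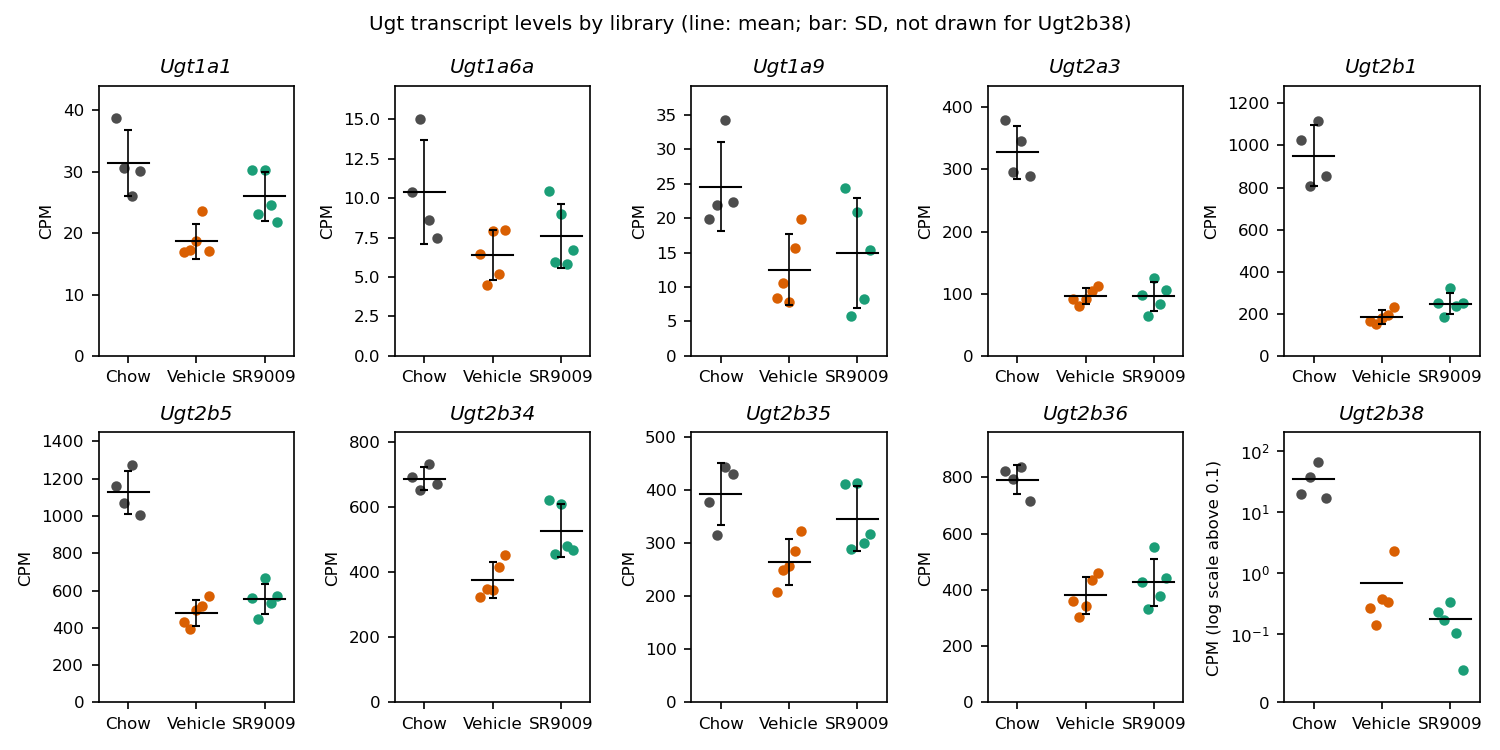
Level of each Ugt gene in every library, in CPM on a linear axis from 0 (Ugt2b38 on an axis that is logarithmic above 0.1), for 4 Chow, 5 Vehicle and 5 SR9009 livers; points are libraries, lines group means and bars SD (not drawn for Ugt2b38). For 7 genes, Ugt2b38 among them, all Vehicle points lie below all Chow points, while SR9009 points overlap Vehicle points in every panel but that of Ugt2b34.

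Among the Ugt1a genes, Ugt1a1 (ENSMUSG00000089960.2), whose enzyme conjugates bilirubin, was at 38.8, 30.7, 26.1 and 30.1 CPM in Chow and at 16.9, 17.2, 18.7, 23.6 and 17.0 CPM in Vehicle. The groups did not overlap, and Vehicle replicate 4 stood above the other Vehicle livers. It fell 1.68-fold (log2 fold change -0.75 ± 0.14 SE, adjusted p = 0.000204). Ugt1a6a (ENSMUSG00000054545.18), a phenol-conjugating form, was at 10.4, 15.0, 8.64 and 7.50 CPM in Chow and 6.46, 4.47, 7.91, 5.20 and 7.99 CPM in Vehicle. The groups overlapped, with Chow replicate 4 inside the Vehicle range. Ugt1a6a fell by 0.70 on the log2 scale (adjusted p = 0.0190), and the call was lost without Chow replicate 2 (log2 fold change -0.46, adjusted p = 0.110). Ugt1a9 (ENSMUSG00000090175.2), which also acts on phenols, was at 19.8, 21.9, 34.2 and 22.3 CPM in Chow and 8.42, 10.6, 7.87, 15.7 and 19.9 CPM in Vehicle. Vehicle replicate 5 reached the lowest Chow library by a small margin. Its log2 fold change of -0.98 ± 0.40 SE missed the threshold (adjusted p = 0.0516), and it passed without Vehicle replicate 5 (-1.21, adjusted p = 0.0241). It also passed without SR9009 replicates 1, 2 or 4, which enter only through the filter and the shared spread (adjusted p = 0.0404, 0.0249 and 0.0451). The highest Vehicle values of Ugt1a9, in replicates 4 and 5, were those of the few-receptor Vehicle libraries. Within that class (2 Vehicle against 4 Chow libraries) its log2 difference was -0.44. Since Ugt1a transcripts share their later exons, how reads were divided among them is uncertain: of all 100-base windows of the longest annotated transcript, 57.2% in Ugt1a1, 58.5% in Ugt1a9 and 100% in Ugt1a6a occur in another Ugt1a transcript as well.

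Ugt2b1 (ENSMUSG00000035836.3), one of the abundant steroid- and drug-conjugating forms of rodent liver, changed most among the abundant genes. It was at 1025, 805, 1118 and 856 CPM in Chow and at 164, 152, 178, 194 and 235 CPM in Vehicle. The lowest Chow liver was thus far above the highest Vehicle liver. Ugt2b1 fell 5.16-fold (log2 fold change -2.37 ± 0.16 SE, adjusted p = 1.14e-08). Ugt2a3 (ENSMUSG00000035780.3), whose human counterpart conjugates bile acids, was at 379, 295, 345 and 289 CPM in Chow and 90.9, 80.5, 92.0, 105 and 113 CPM in Vehicle. All Vehicle values were again well below Chow, a 3.40-fold fall (-1.77 ± 0.16 SE, adjusted p = 2.64e-07).

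Ugt2b5 (ENSMUSG00000054630.8) and Ugt2b36 (ENSMUSG00000070704.11), the 2 genes with the highest level per length, fell to a similar degree. Ugt2b5 was at 1158, 1071, 1272 and 1007 CPM in Chow and 429, 395, 494, 517 and 571 CPM in Vehicle, 2.34-fold lower (-1.23 ± 0.13 SE, adjusted p = 8.44e-07). Ugt2b36 was at 821, 794, 837 and 718 CPM in Chow and 359, 303, 344, 437 and 462 CPM in Vehicle, 2.08-fold lower (-1.06 ± 0.14 SE, adjusted p = 1.32e-05). Neither gene had overlapping groups. Ugt2b34 (ENSMUSG00000029260.16) was at 694, 654, 734 and 672 CPM in Chow and 325, 347, 345, 415 and 454 CPM in Vehicle, without overlap and 1.83-fold lower (-0.87 ± 0.12 SE, adjusted p = 1.72e-05). Ugt2b35 (ENSMUSG00000035811.11) was at 378, 315, 443 and 430 CPM in Chow and 209, 249, 256, 284 and 323 CPM in Vehicle. Vehicle replicate 5 lay above Chow replicate 2, so these groups overlapped. The fall in Ugt2b35 was the smallest of the 9 (1.48-fold, -0.57 ± 0.15 SE, adjusted p = 0.00352).

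Ugt2b38 (ENSMUSG00000061906.6) went from clearly expressed to nearly undetected. Chow libraries held 572, 1290, 1988 and 411 counts of it, or 20.1, 36.9, 65.8 and 16.9 CPM. Vehicle libraries held 12, 6, 18, 17 and 108 counts, or 0.27, 0.14, 0.37, 0.34 and 2.31 CPM. The lowest Chow liver was above the highest Vehicle liver, and Vehicle replicate 5 stood apart from the other 4. The fitted fall was 50.3-fold (log2 fold change -5.65 ± 0.68 SE, adjusted p = 1.29e-05), and -6.92 on the log2 scale without Vehicle replicate 5. Reads from the shared stretches are a limit here: 24.2% of the 100-base windows of Ugt2b38 occur in Ugt2b5, the member with the most counts (364103 over all libraries). Ugt2b37, the relative with the upstream sequence nearest to that of Ugt2b38, was at 1.65, 3.44, 8.61 and 1.57 CPM in Chow and 0.57, 0.38, 1.16, 0.65 and 1.47 CPM in Vehicle. As for Ugt2b38, its highest Chow library was replicate 3 and its highest Vehicle library replicate 5. It fell by 2.17 on the log2 scale (adjusted p = 0.00110), and by 1.39 without Chow replicate 3 (-1.39).

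Levels of the Ugt2 genes were set side by side per kilobase of the longest transcript in GENCODE M21, with the Ugt1a genes left out because their transcripts share exons. In Chow, Ugt2b5 led with 607 ± 61.8 CPM per kilobase (SD, n = 4), followed by Ugt2b36 with 420 ± 28.0 and Ugt2b1 with 370 ± 56.6, whose spreads overlap. Ugt2b34 (160 ± 8.01) and Ugt2a3 (155 ± 20.2) came next and did not differ beyond their spread. Ugt2b35 followed with 117 ± 17.4 and Ugt2b38 with 18.5 ± 11.8. In Vehicle the order was Ugt2b5 (259 ± 37.7, n = 5), Ugt2b36 (202 ± 35.1), Ugt2b34 (87.5 ± 12.7), Ugt2b35 (78.7 ± 12.7), Ugt2b1 (71.7 ± 12.5), Ugt2a3 (45.4 ± 5.97) and Ugt2b38 (0.364 ± 0.481). Ugt2b1 thus moved from the third place to the fifth, into a group of 3 genes whose spreads overlap. The transcript lengths of Ugt2b34 (4312 bases) and Ugt2b35 (3359 bases) come from long annotated forms, and a shorter true form would raise their level per kilobase.

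The make-up of the family's counts shifted with the diet. Ugt2b1 gave 21.6 ± 1.36% of the summed counts of the 10 genes in Chow (19.9% to 22.9%) and 10.1 ± 0.387% in Vehicle (9.70% to 10.6%). Ugt2b35 went the other way, from 8.95 ± 1.24% to 14.5 ± 1.08%, and Ugt2b34 from 15.8 ± 0.740% to 20.7 ± 0.958%. In none of these 3 did the shares of the groups overlap. Ugt2b5 held a like share in both, 25.7 ± 0.711% and 26.4 ± 1.17%. The shares of 1 library sum to a whole, so a fall in one gene raises the others. In SR9009 livers the share of Ugt2b1 was between 10.2% and 11.7% (n = 5), a range that overlaps Vehicle, and Ugt2b34 reached 23.6 ± 1.83%.

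**Figure D2:**
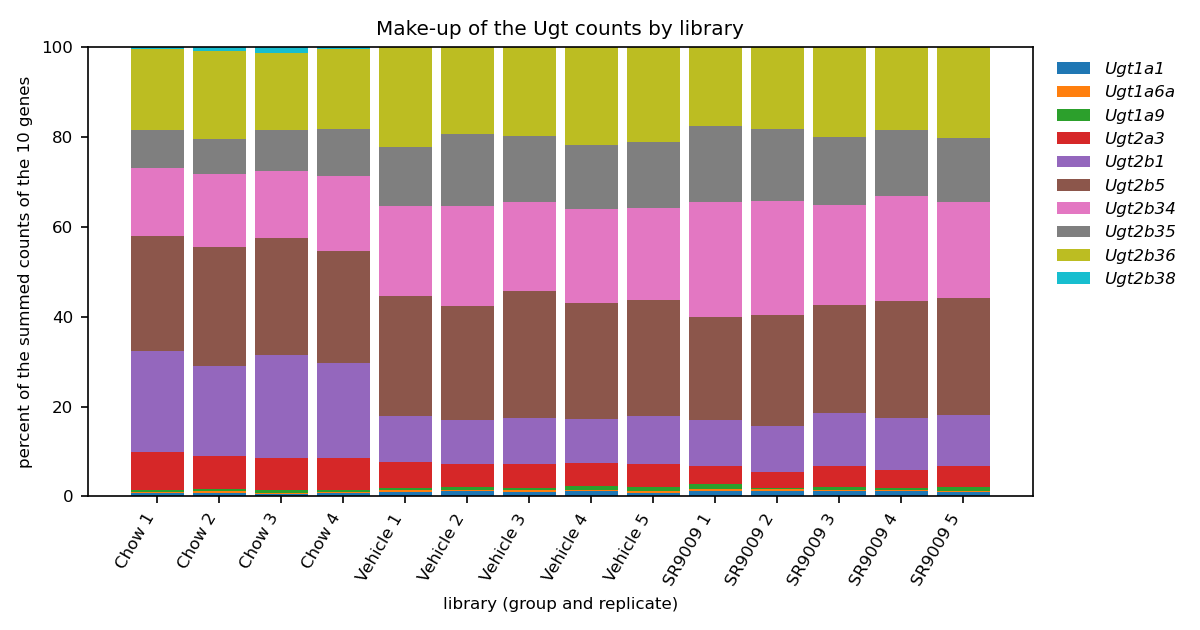
Share of each gene in the summed counts of the 10 Ugt genes, in percent, stacked for each of the 14 libraries. The Ugt2b1 band covers 19.9% to 22.9% in Chow and 9.70% to 11.7% in the diet-fed livers, and the Ugt2b38 band at the top is visible only in Chow.

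SR9009 was compared with Vehicle to ask what the compound changed under the same diet. No member passed the threshold in edgeR (0 of 10, against 0.242% of all genes in either direction and 0.165% higher). At an unadjusted p under 0.05, 4 members were higher (Ugt1a1, Ugt2b1, Ugt2b34 and Ugt2b35; 3.91% of all genes) and 1 was lower (Ugt2b38; 3.37% of all genes). The median log2 fold change of the 10 was 0.25, against 0.0011 over all genes. DESeq2 called 2 members, Ugt2b34 and Ugt1a1, and limma-voom called 0. The comparison shares its Vehicle libraries with the one above, so the directions of the 2 are not independent.

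Ugt2b34 was the only member whose groups did not overlap in this comparison, which 0.891% of all genes did in this direction. It was at 622, 456, 611, 481 and 470 CPM in SR9009, where the lowest value was just above the 454 CPM of Vehicle replicate 5. The fitted difference was 1.40-fold higher (log2 fold change 0.49, 95% interval 0.24 to 0.73), with an adjusted p of 0.131 in edgeR, 0.00529 in DESeq2 and 0.0318 in edgeR with a term for the number of receptor genes detected. Ugt1a1 was at 30.3, 23.1, 30.3, 24.6 and 21.8 CPM in SR9009. Only 2 of these values, those of replicates 2 and 5, lay below the 23.6 CPM of Vehicle replicate 4, and all 5 lay above the other 4 Vehicle livers. Its log2 fold change was 0.48 (1.39-fold, adjusted p = 0.223 in edgeR and 0.0473 in DESeq2). In both genes SR9009 replicates 1 and 3 were the highest, the 2 SR9009 livers with few receptor genes. Within the few-receptor class the log2 difference was 0.51 for Ugt2b34 and 0.59 for Ugt1a1 (2 against 2 libraries), and within the many-receptor class it was 0.47 and 0.40 (3 against 3).

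Ugt2b1 was at 250, 185, 322, 237 and 249 CPM in SR9009, against 152 to 235 CPM in Vehicle. Of the 5 SR9009 libraries 4 lay above all Vehicle libraries, and the log2 fold change was 0.43 (adjusted p = 0.391), with within-class differences of 0.41 and 0.43. Ugt2b35 was at 412, 289, 413, 300 and 316 CPM and overlapped the 209 to 323 CPM of Vehicle (0.39, adjusted p = 0.429). Ugt2b5, at 447 to 666 CPM, had a log2 fold change of 0.21 (adjusted p = 0.789), and Ugt2b36, at 332 to 551 CPM, one of 0.16 (adjusted p = 0.890). Ugt2a3 was at 98.7, 64.8, 125, 82.7 and 107 CPM, a range that holds all 5 Vehicle values. Its log2 fold change was -0.0093, with a 95% interval of -0.33 to 0.31. That interval does not reach a change of the size seen between Vehicle and Chow, but it leaves room for smaller ones.

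Ugt1a6a was at 5.85 to 10.5 CPM in SR9009 and Ugt1a9 at 5.73 to 24.4 CPM, and both overlapped Vehicle widely (log2 fold changes 0.25 and 0.26, adjusted p = 0.911 and 0.960). For both genes the difference was 0.59 and 0.35 in the few-receptor class and 0.014 and 0.016 in the many-receptor class. Ugt2b38 stayed at the bottom of the detectable range. SR9009 libraries held 11, 7, 13, 5 and 2 counts, the last under the floor of 3. Its log2 fold change of -1.95 (adjusted p = 0.664) became -0.68 without Vehicle replicate 5.

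SR9009-treated, diet-fed livers were also set against Chow. Of the 10 genes 6 were lower and 0 were higher, where 56.2% of all genes passed, 25.7% lower and 30.5% higher. The same 6 had no overlap between the groups (21% of all genes in that direction, 25.5% in the other). They were Ugt2b38 (-7.60 on the log2 scale), Ugt2b1 (-1.93), Ugt2a3 (-1.77), Ugt2b5 (-1.02), Ugt2b36 (-0.89) and Ugt2b34 (-0.38, adjusted p = 0.0129 in edgeR). Ugt2b34 lay between the other groups, at 456 to 622 CPM below a Chow minimum of 654. The 4 that did not pass in the main edgeR fit were Ugt1a1 (-0.27, adjusted p = 0.0981), Ugt1a6a (-0.45, adjusted p = 0.113), Ugt1a9 (-0.72, adjusted p = 0.141) and Ugt2b35 (-0.18, adjusted p = 0.315). By limma-voom Ugt1a1, Ugt1a6a and Ugt1a9 were called lower (adjusted p = 0.0406, 0.0304 and 0.0191). Ugt1a6a also passed in edgeR without SR9009 replicate 1, a few-receptor library (adjusted p = 0.0436). Within the few-receptor class (2 SR9009 against 4 Chow libraries) the log2 differences of these 4 were -0.039, -0.047, -0.089 and 0.089. Those of the 6 called genes were -6.51 (Ugt2b38), -1.73 (Ugt2b1), -1.55 (Ugt2a3), -0.88 (Ugt2b5), -0.70 (Ugt2b36) and -0.16 (Ugt2b34). Of the 4 that did not pass, Ugt1a1, Ugt1a6a and Ugt2b35 passed in Vehicle versus Chow in the main fit. Passing there and not here does not show a change by SR9009, and the test of that difference is SR9009 versus Vehicle, where none of them passed in edgeR.

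**Figure D3:**
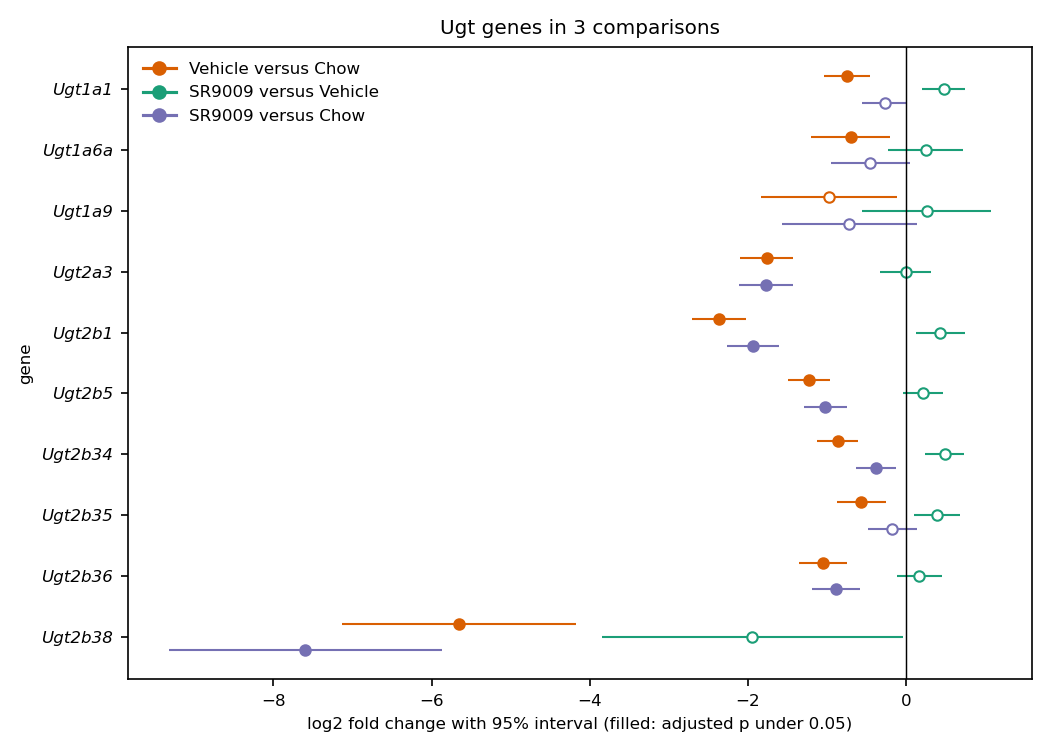
Log2 fold change of each Ugt gene with its 95% interval in the 3 comparisons from the edgeR fit; filled points have an adjusted p under 0.05. Vehicle versus Chow points lie at or below -0.57, SR9009 versus Vehicle points are all open, and Ugt2b38 extends to -7.60.

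The scaling of the libraries sets the size of the diet folds. TMM factors were 0.753 to 0.824 in Chow and 1.02 to 1.15 in the diet-fed libraries. Scaled to total counts alone, the median gene moved to 0.50 in Vehicle versus Chow, and the calls split into 10389 higher and 1378 lower, against 5414 and 4621 with TMM. All 10 members were still lower on that scale, and 6 passed. Relative to the moved median Ugt2b1 was at -2.39, Ugt1a1 at -0.77, Ugt1a6a at -0.73 and Ugt2b35 at -0.59, where the last 3 lost their calls (raw log2 fold changes -0.26, -0.23 and -0.09). In SR9009 versus Chow the median moved to 0.47, with 9964 higher and 1577 lower against 5548 and 4665, and 3 members turned positive: Ugt2b34 from -0.38 to 0.067, Ugt1a1 from -0.27 to 0.18 and Ugt2b35 from -0.18 to 0.27. Relative to that median they were at -0.41, -0.29 and -0.20. Within the few-receptor class alone (2 Vehicle against 4 Chow libraries) all 10 members were lower in Vehicle, from -0.36 for Ugt2b35 to -4.97 for Ugt2b38, with -2.14 for Ugt2b1.

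Of 12 other UDP-glycosyltransferases 8 were tested. In Vehicle versus Chow 6 of them fell and 2 rose, with a median log2 fold change of -1.16. Those that fell were Ugt1a5 (-2.04), Ugt1a6b (-0.82), Ugt1a10 (-2.19), Ugt2b37 (-2.17), Ugt3a1 (-1.51) and Ugt3a2 (-0.70). Ugt3a enzymes are relatives that use other sugars than glucuronic acid, and Ugt3a2 was abundant, at 499 ± 43.3 CPM (SD, n = 4) in Chow and 307 ± 47.0 CPM (SD, n = 5) in Vehicle. Ugt1a10 rested on 11 to 29 counts per Chow library and 0 to 8 per Vehicle library. Ugt8a, which makes galactosylceramide, the myelin lipid, went the other way, from 0.14, 0.43, 0.33 and 0.12 CPM in Chow to 2.12, 3.88, 3.15, 1.58 and 0.90 CPM in Vehicle, a rise of 3.12 on the log2 scale. Ugt1a7c rose by 1.69, from 0.43 to 0.95 CPM in Chow to 1.51 to 2.33 CPM in Vehicle, although its longest GENCODE M21 transcript holds all of Ugt1a6a. No gene of these 8 passed in SR9009 versus Vehicle in edgeR, DESeq2 or limma-voom (0 at an unadjusted p under 0.05 in edgeR). Ugt1a2 and Ugt1a8 had too few counts to test (48 and 14 over all libraries), and Ugt2a1 and Ugt2a2, which share most of their sequence with each other, had 0 counts in every library.

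Genes around the reaction moved in both directions with the diet. Among 9 genes of UDP-glucuronate supply 1 rose and 4 fell in Vehicle. Pgm2, a phosphoglucomutase, rose by 1.46, while Slc35d2, a nucleotide sugar transporter, fell by 0.77, Pgm1 by 0.74 and Uxs1, which turns UDP-glucuronate into UDP-xylose, by 0.38 on the log2 scale. Ugdh, the enzyme that makes UDP-glucuronate, did not pass (0.17, adjusted p = 0.281). It passed as higher in edgeR with a term for the number of receptor genes detected (0.38, adjusted p = 0.0119). With total counts in place of TMM it also passed (0.65, adjusted p = 0.000320), where the median gene stood at 0.50. Slc35d1, the carrier of UDP-glucuronate into the endoplasmic reticulum, did not pass in the main fit (-0.21, adjusted p = 0.148), but did without Vehicle replicate 5 (-0.32, adjusted p = 0.0182). Of 3 genes that act on glucuronides or hold the enzyme that cleaves them, Gusb, the lysosomal beta-glucuronidase, rose from 34.6 ± 1.29 to 67.9 ± 6.88 CPM (1.96-fold), Abhd10 rose by 0.49, and Ces1e, the egasyn that retains beta-glucuronidase in the endoplasmic reticulum, fell 5.44-fold. Of 7 genes of glucuronate use and ascorbate synthesis 5 fell and 0 rose, among them Dcxr (-1.14), Cryl1 (-1.16), Rgn (-1.21) and Sord (-0.60).

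Of the 4 genes that turn haem into bilirubin, the substrate of Ugt1a1, 2 rose in Vehicle and 0 fell. Hmox1, the inducible haem oxygenase, rose 4.09-fold, from 16.7 ± 3.39 to 68.2 ± 10.0 CPM, and Blvra, a biliverdin reductase, rose by 0.42, while Blvrb (0.11) and Hmox2 (0.03) did not pass. Blvrb passed without Vehicle replicate 2 (0.22, adjusted p = 0.0259 in edgeR). Hmox1 is also expressed by macrophages, whose summed markers rose as given above, and their part in it was not tested. Of 8 transporters of glucuronides and bilirubin 1 rose and 5 fell. Abcc2, the canalicular exporter of bilirubin glucuronides, fell by 0.67, and the uptake carriers Slco2b1 and Slco1b2 by 1.20 and 1.06, while Abcg2 fell by 0.85. Scaled to total counts alone, Abcc2 was at -0.20 and lost its call (adjusted p = 0.261 in edgeR). Abcc4, an exporter into blood, rose from 3.25 ± 1.13 to 14.1 ± 5.76 CPM (4.38-fold). Abcc3, the other exporter into blood, did not pass (-0.41, adjusted p = 0.0888), but did without Chow replicate 3 (-0.63, adjusted p = 4.47e-05).

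Among 13 regulators of Ugt genes 9 fell and 2 rose in Vehicle. Those that fell included Nr1i2, which encodes PXR (-0.64), the glucocorticoid receptor gene Nr3c1 (-0.73) and Nr1h4, which encodes FXR (-0.83). Ahr rose by 0.41 (adjusted p = 0.0338), but missed the threshold when Chow replicate 1, 3 or 4 or Vehicle replicate 4 or 5 was left out (adjusted p = 0.0584 to 0.109), and Nfe2l2 rose by 0.46. Nr1i3, which encodes CAR, did not pass (-0.52, adjusted p = 0.168). Of 11 genes that read out these receptors 3 rose and 4 fell, with log2 fold changes over the list from -4.27 to 3.18. Nqo1 and Srxn1, targets of NRF2, rose by 1.73 and 1.66, while Gclc, another NRF2 target, fell by 0.43. Cyp2c29 and Cyp3a11, targets of CAR and PXR, fell by 4.27 and 0.79.

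**Figure D4:**
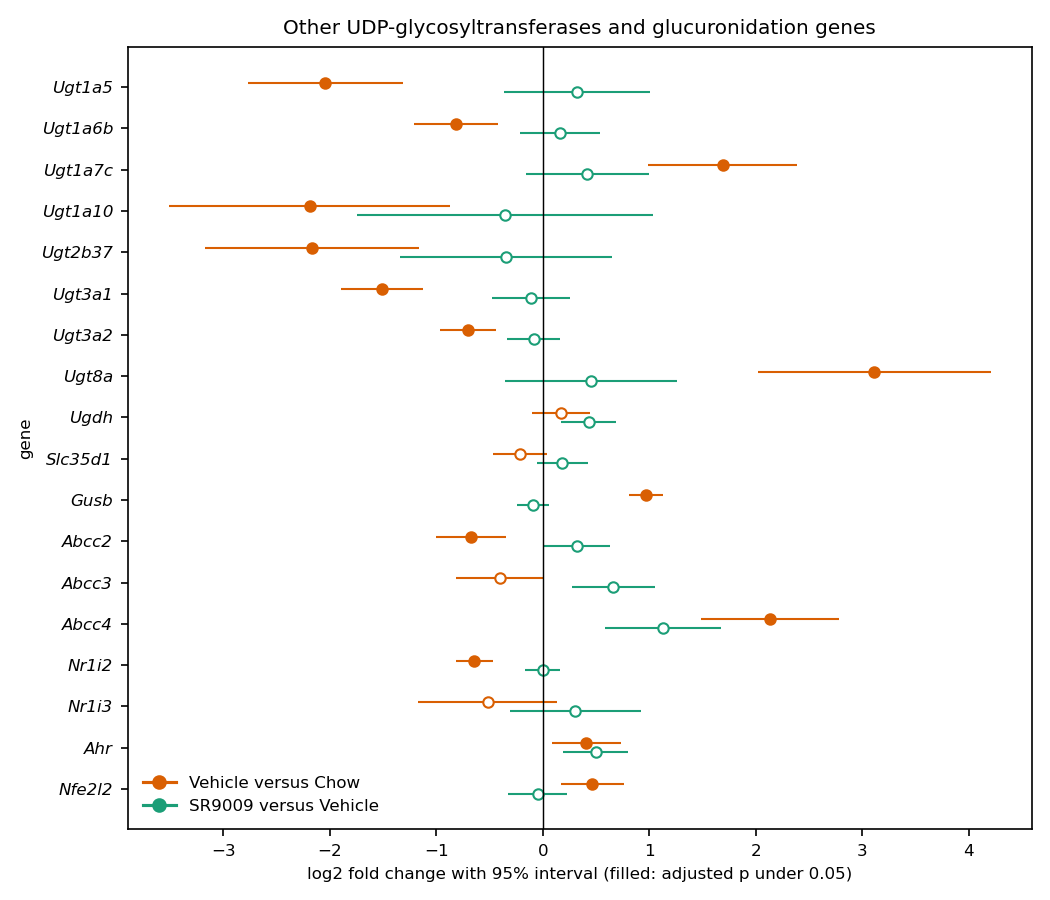
Log2 fold change with 95% interval of the other tested UDP-glycosyltransferases and of glucuronidation genes from the edgeR fit, for Vehicle versus Chow and SR9009 versus Vehicle; filled points have an adjusted p under 0.05. With the diet 6 of the 8 glycosyltransferases lie below 0 and Ugt1a7c and Ugt8a above it, and all SR9009 versus Vehicle points are open.

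With SR9009 the 4 receptor readouts that passed rose by more than any of the 10 members (at most 0.49 on the log2 scale). These 4 were picked by the same threshold that no member passed, so the contrast comes partly from that choice. The medians of the lists were close, at 0.27 over the 11 readouts and 0.25 over the 10 members. Of the 11 readouts 4 rose and 0 fell against Vehicle: Cyp2b10 from 0.386 ± 0.479 to 437 ± 91.8 CPM, Cyp2c29 from 81.1 ± 23.8 to 4859 ± 549 CPM (59.9-fold), Cyp3a11 by 1.23 and Cyp1a2 by 1.45 on the log2 scale. No gene of the supply, deconjugation, glucuronate use, haem, transporter or regulator lists passed in edgeR. At an unadjusted p under 0.05, 2 supply genes, 4 transporters and 1 regulator were higher and 1 transporter was lower. DESeq2 called 3 of the genes named, Ugdh, Abcc3 and Abcc4, limma-voom called Abcc4 (adjusted p = 0.00782), and edgeR fitted to only these 2 groups called Abcc3 (adjusted p = 0.00456). Ugdh was at 401, 307, 369, 290 and 327 CPM in SR9009 and 197, 256, 218, 267 and 319 CPM in Vehicle, where Vehicle replicate 5 overlapped the SR9009 range (log2 fold change 0.43, adjusted p = 0.242 in edgeR and 0.0479 in DESeq2). Abcc3 was at 405, 395, 393, 409 and 431 CPM in SR9009, all above the 218 to 281 CPM of Vehicle (0.66, adjusted p = 0.242). Without Chow replicate 3, which was at 163 CPM against 374 to 413 in the other Chow livers and enters through the shared spread, its adjusted p was 0.00132. Abcc4 was at 23.0 to 39.5 CPM in SR9009 and overlapped Vehicle through replicate 2 at 24.4 CPM (1.13, adjusted p = 0.122, and 1.42 with adjusted p = 0.00801 without that library). Ugdh and Ahr were higher in SR9009 than in Chow (0.60 and 0.91).

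Over all 14 libraries the genes with the most similar profile were found by the root mean square difference of centred log2 CPM, given as a description, since all pairs share their libraries and the diet contrast. Ugt2b5 and Ugt2b36 were nearest to each other among the members, at 0.105, and Ugt2b36 lay closest to Hibadh among all other genes (0.0943). Ugt2b34 and Ugt2b35 were each other's nearest member at 0.159, and Ugt2b1 and Ugt2a3 at 0.275. Outside the family the nearest genes were Hpgd for Ugt1a1 (0.144), Ghr for Ugt2a3 (0.138), Mpv17l for Ugt2b1 (0.143) and Cd1d1 for Ugt2b34 (0.136). For Ugt2b38 the nearest gene was Capn8 at 0.637, and the nearest member Ugt2b1 at 2.27. This distance grows with the size of a gene's changes, so these values cannot be set directly against those of the other members. The median distance to all genes outside the family was 3.18 for Ugt2b38 and 0.496 (Ugt2b35) to 1.07 (Ugt2b1) for the other members. For Ugt1a6a, Ugt1a9, Ugt2b5 and Ugt2b35 the nearest gene outside the family lay between 0.107 and 0.338.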

How the data were processed

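Bulk liver RNA of 15 samples was described, and 14 libraries were used, since the counts used here had no column for Chow replicate 5. The authors deposited unnormalized counts, with a row for each Ensembl identifier and a column for each library. The submitters' processing notes name STAR 2.7.11b and the GRCm39 build. Not given in the sources used here were the counting tool, the annotation and the strand setting, so genes of similar or overlapping sequence are uncertain. Symbols matched 51880 identifiers through RefSeq's GRCm38.p6 gene table, which gave names only.

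Counts were analysed with edgeR 4.0.16 (R 4.3.3): filterByExpr by group (minimum count 10, total 15), which kept 99.9% of counts, TMM, robust quasi-likelihood fits over the 3 groups and Benjamini-Hochberg adjustment over all tested genes. Pipeline steps were tested on simulated data. Biological variation had a common coefficient of 0.211. Floors cover counting error only. P-values weigh a group difference against the spread between these samples. The 26 within-group library pairs all differed beyond sampling noise (mean chi-square per gene at least 15.7). The members, gene lists and receptor classes were chosen with earlier results of these data known. Named were all members and tested relatives, up to 4 genes per pathway list with the smallest adjusted p, and Ugdh, Slc35d1, Gusb, Abcc2, Abcc3, Nr1i2, Nr1i3, Ahr and Nfe2l2. Cyp3a11, Cyp1a2 and Gclc were named outside this rule, Gclc after its values were seen. Values of 1 regulator and 1 motif are left out. Alternatives were DESeq2 1.42.0, limma-voom 3.58.1, other scalings and filters, a receptor gene term, a replicate block and leaving out each library.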

Additional observations from a re-analysis of the deposited data

Results flagged for a closer look

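In 54 groups of 4 or 5 libraries (the 18 tested UDP-glycosyltransferases in 3 groups each), 4 held a library far from the others by Dixon's criterion, where chance gives about 1 in 20. Ugt1a1 was at 23.6 CPM in Vehicle replicate 4, against 18.7 in the nearest Vehicle library. Ugt2b38 was at 2.31 CPM in Vehicle replicate 5, against 0.373. Ugt1a7c was at 4.52 CPM in SR9009 replicate 5, against 2.47. Ugt3a2 was at 226 CPM in Vehicle replicate 2, the lowest, against 308.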

How the results depend on the processing

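Over 9 alternatives and 14 fits that each left out 1 library, the number of members called stayed between 6 and 10 in Vehicle versus Chow (main 9) and between 5 and 9 in SR9009 versus Chow (main 6), with 0 called higher. In SR9009 versus Vehicle it was 0 except with DESeq2 (2) and with the term for receptor genes detected (1). Of all genes in that comparison, 44 were called, against 212 with DESeq2, 15 with a replicate block and 18 to 56 when 1 library was left out; the count changed by over 1.5 times without Vehicle replicates 1, 3 or 4 or SR9009 replicates 1, 3, 4 or 5. With total counts in place of TMM, values that turned direction and were called on either scale were Slc35d1 (0.27) and Uxs1 (0.11) in Vehicle versus Chow, and Ugt2b34 (0.067), Slc35d1 (0.42) and Sord (0.015) in SR9009 versus Chow. Values called on neither scale that also turned were Abcc3 in the first (0.073), Nr1i2 in SR9009 versus Vehicle (-0.031) and Ugt1a1 (0.18), Ugt2b35 (0.27), Abcc2 (0.096), Nr1i3 (0.23) and Uxs1 (0.24) in SR9009 versus Chow; the median of all genes moved as given above. Genes outside the members also lost calls in Vehicle versus Chow with total counts while staying lower. Among them were Ugt1a6b (-0.34), Ugt3a2 (-0.22), Abcc2 (-0.20), Nr1i2 (-0.17) and Sord (-0.13), with adjusted p = 0.0660 to 0.385 in edgeR. With the receptor term, Ugt1a6a and Ugt2b35 lost their calls in Vehicle versus Chow (adjusted p = 0.121 and 0.0647 in edgeR), as did Ugt2b34 in SR9009 versus Chow (0.0960). Ugt1a9 was called in Vehicle versus Chow in 5 of the 9 alternatives. DESeq2 (adjusted p = 0.0330) and limma-voom (0.0159) called it. So did edgeR with DESeq2's size factors (0.0499), with at least 1 CPM required in at least 4 libraries (0.0486), and fitted to only the groups compared (0.0177). Ahr lost its call in Vehicle versus Chow with the replicate block (adjusted p = 0.0836) and with no low-count filter (0.0518). The cause was not tested. Same-numbered libraries did not deviate together (correlations of -0.36 to 0.20, best with their own number in 4 of 26 cases), so numbers were not taken as pairs; the replicate block called 9, 0 and 6 members in the 3 comparisons. Depth limited Ugt2b38 in diet-fed livers and Ugt1a10.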
